A study of Mus musculus with 8 samples.

Results

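The 7 genes described here mark pericytes, the contractile cells that wrap small blood vessels. They are Rgs5, Cspg4, Mcam, Notch3, Kcnj8, Abcc9 and Higd1b. They were taken from a table of 57132 genes by symbol, and each of the 7 stood on 1 identifier. All 7 passed the filter on low counts, as did 16588 genes in all.

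RNA was sequenced from tumours grown under the skin of mice from KPC cells, a mouse pancreatic cancer model. The 4 control samples came from mice given PBS, a salt solution, and are called PBS 1 to PBS 4. The 4 treated samples, PDT 1 to PDT 4, came from mice given Ce6@D4-EV and light, that is, photodynamic therapy (PDT). Chlorin e6 (Ce6) turns light into reactive oxygen, and D4-EV is the carrier as the submitters name it. Both groups carried the same kind of tumour. The sources used here do not give mouse strain, age, dose, light setting or the time between light and harvest. Light without the agent, and the agent without light, were not analysed here. The labels call the tissue sorted but name no gate, and they do not say that samples came from separate animals. P-values therefore measure only the spread between these samples, which may be technical.

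Pericytes share a basement membrane with the endothelial cells that line a vessel. Endothelial cells release PDGF-B, which draws pericytes through the receptor Pdgfrb, and display Jag1, which activates Notch3 on the pericyte. Pericytes answer with Angpt1, a ligand that steadies the vessel through the endothelial receptor Tek. In tumours this wrapping is often loose. In bulk tissue, fewer pericytes and less of a transcript per pericyte cannot be told apart.

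Summed gene counts were 35742024 to 40337306 in PBS and 39026840 to 48804713 in PDT. Levels are given as CPM, read counts relative to the scaled size of the library, and differences as log2 fold changes of PDT minus PBS. PBS 1 stood apart from the other 7 libraries, at −111 on the first principal component of all tested genes against −8.53 to 37.2. Differences of the members that rest on it are given with and without it. The likeness of library patterns and the levels per kilobase are given with it only, as are some results of other genes. Reads of the tumour epithelium were present in all libraries, with summed CPM of 7 epithelial markers from 2951 to 6946. Endothelial, fibroblast and macrophage markers were present as well.

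None of the 7 pericyte markers changed between PBS and PDT past the threshold, an adjusted p of 0.05 over all tested genes in edgeR's quasi-likelihood test. The same held in DESeq2 and in limma-voom, each with 0 of 7. Over all tested genes, 0.235% passed edgeR's test, 0.163% as higher and 0.0723% as lower in PDT, while DESeq2 passed 6.36% and limma-voom 1.01%. An unadjusted p under 0.05 was reached by 0 of the 7 in edgeR, against 16.5% of all tested genes (8.63% higher in PDT). In 0 of the 7 did all PDT libraries lie on one side of all PBS libraries, against 10.1% of all genes. The direction was mixed, with 5 of the 7 higher in PDT, where 49.8% of all genes were higher. The median log2 difference of the 7 was 0.14, and that of all tested genes was 0.00. The median of the 7 was 0.24 without PBS 1, 0.22 without PBS 3, 0.27 without PBS 4, 0.28 without PDT 1 and 0.33 in limma-voom.

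**Figure D1:**
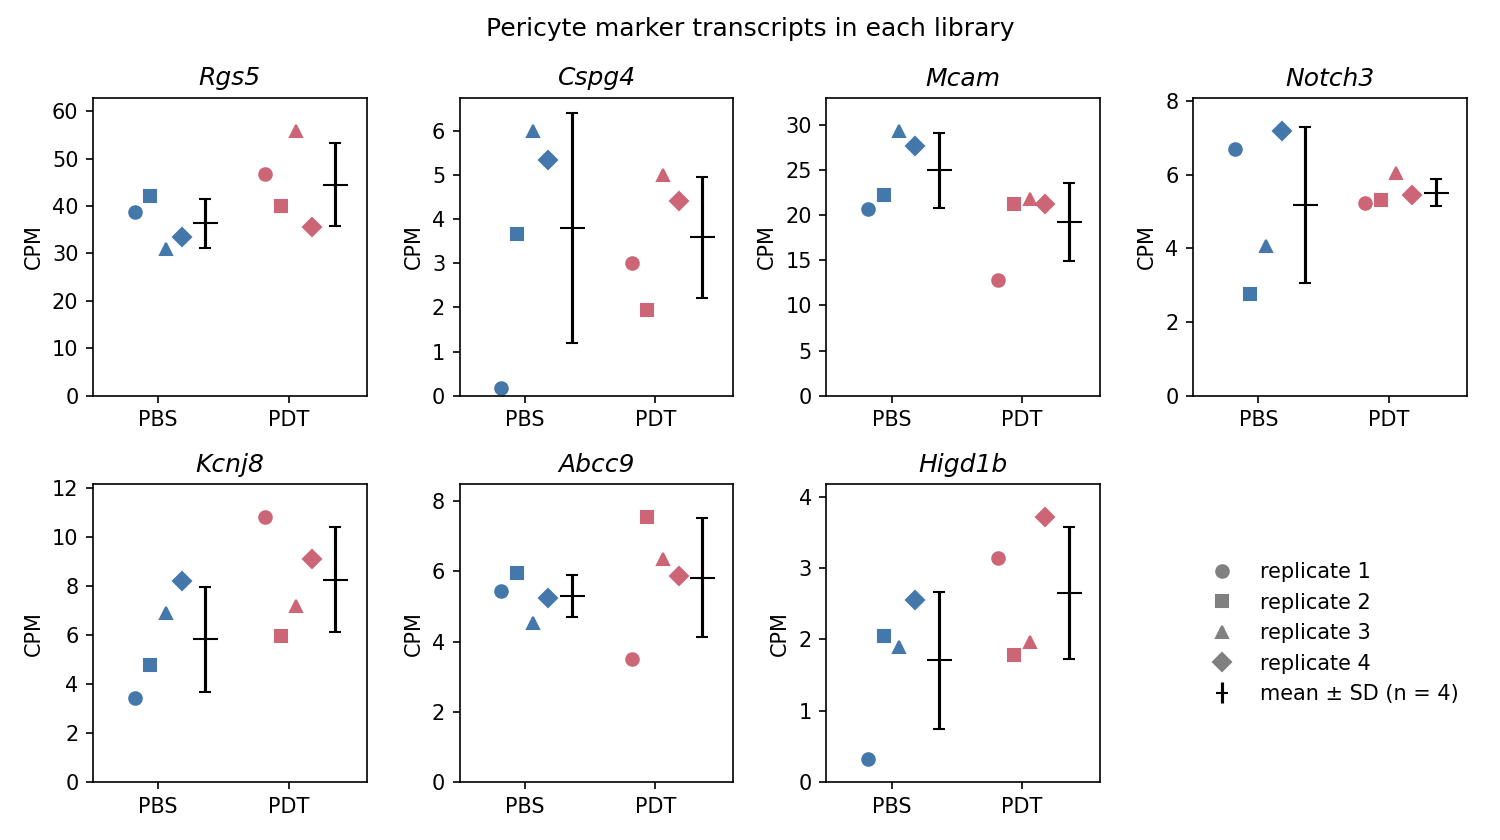
CPM of the 7 pericyte markers in each of the 4 PBS (blue) and 4 PDT (red) libraries, with symbols for the replicate and a black bar for mean ± SD. The groups overlap for every gene, and Cspg4 and Higd1b are lowest in PBS 1, at 0.163 and 0.327 CPM.

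Rgs5 (ENSMUSG00000026678, chromosome 1) encodes a small protein that shortens signalling by heterotrimeric G proteins, and is among the most used transcripts for pericytes of tumour vessels. It was at 38.8, 42.2, 30.9 and 33.5 CPM in PBS 1 to PBS 4 and at 46.6, 40.1, 55.8 and 35.5 CPM in PDT 1 to PDT 4. PDT 1 and PDT 3 lay above all PBS libraries, while PDT 2 and PDT 4 lay within their range. Mean levels were 36.3 ± 5.10 CPM for PBS and 44.5 ± 8.82 CPM for PDT (SD, n = 4). This gave a log2 difference of 0.29 ± 0.16 (SE, 95% interval −0.07 to 0.65, adjusted p = 0.417 by edgeR). Of the 7 related small RGS genes that were tested, 0 passed in edgeR or limma-voom and 1 in DESeq2, Rgs3, with a median log2 difference of −0.03 that ran from −0.23 to 0.10 over the alternatives. Rgs3, which limits G-protein signalling in many cell types, was at 9.01 to 11.6 CPM in PBS and 13.96 to 18.2 CPM in PDT. Its groups did not overlap, and its log2 difference was 0.66 ± 0.17 (adjusted p = 0.0993 by edgeR and 0.025 by DESeq2). Rgs4, the next smallest p of that family, differed by −0.61 ± 0.35 (adjusted p = 0.431 by edgeR).

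Mcam and Cspg4 encode surface proteins. Mcam (ENSMUSG00000032135, chromosome 9), an adhesion molecule of the immunoglobulin family, is found on pericytes and smooth muscle and also on endothelial cells. It was at 20.7, 22.2, 29.3 and 27.7 CPM in PBS 1 to PBS 4 and at 12.8, 21.3, 21.9 and 21.3 CPM in PDT 1 to PDT 4. PDT 1 lay below all other libraries, and the other PDT libraries lay close together at the lower end of the PBS range. The means were 25.0 ± 4.16 and 19.3 ± 4.33 CPM (SD, n = 4). With a log2 difference of −0.37 ± 0.20 (SE, 95% interval −0.81 to 0.06, adjusted p = 0.388 by edgeR), it was the lowest of the 7 over all libraries, and Cspg4 was lowest without PBS 1. Without PDT 1 the log2 difference was −0.21, a size smaller by more than 1.5 times. PDT 1 also had the lowest summed CPM of the endothelial markers, at 199 against 225 to 284 in the other 7 libraries, and whether this bears on Mcam was not tested.

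Cspg4 (ENSMUSG00000032911, chromosome 9) encodes a large chondroitin sulfate proteoglycan of pericytes that glial progenitors and some tumour cells also carry. It was at 0.163, 3.67, 5.99 and 5.35 CPM in PBS 1 to PBS 4 and at 3.01, 1.94, 4.995 and 4.40 CPM in PDT 1 to PDT 4. PBS 1 held 6 reads, with an exact Poisson interval of 2.20 to 13.1 that covers counting error only, against 154 to 228 reads in the other PBS libraries. The log2 difference of −0.08 ± 0.71 (SE, 95% interval −1.64 to 1.48, adjusted p = 0.973 by edgeR) is therefore a wide one. It moved to −0.48 without PBS 1, and the 3 remaining PBS libraries had a mean of 5.01 ± 1.20 CPM (SD, n = 3). The 7 Schwann cell and glial markers summed to 39.3 to 86.5 CPM in PBS and 39.7 to 63.4 CPM in PDT, with PBS 1 and PDT 2 lowest. Mbp and Erbb3 weighed most in that sum, with PBS means of 24.0 and 23.3 CPM. By the mean log2 CPM of the same markers, PBS 4 (0.23) and PDT 1 (0.28) were lowest instead. Whether glial content bears on Cspg4 was not tested. Sox10, which defines that lineage, had 0 reads in 7 libraries and 10 in PDT 4.

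Notch3 (ENSMUSG00000038146, chromosome 17) is the Notch receptor of mural cells, the pericytes and smooth muscle cells of vessels. It was at 6.69, 2.77, 4.05 and 7.18 CPM in PBS 1 to PBS 4 and at 5.23, 5.30, 6.04 and 5.45 CPM in PDT 1 to PDT 4. All 4 PDT values lay inside the PBS range. The coefficient of variation was 40.9% in PBS and 6.71% in PDT, a difference in spread that was not tested. PDT minus PBS was 0.09 ± 0.33 on the log2 scale (SE, 95% interval −0.62 to 0.80, adjusted p = 0.933 by edgeR). It was −0.12 without PBS 2 and 0.30 without PBS 4, so its sign rested on single control libraries.

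Genes around Notch3 were mostly lower in PDT. Of 14 Notch receptors, ligands and targets, 3 were higher, with a median log2 difference of −0.26, or −0.44 without PDT 3. In edgeR 0 passed and 1 had an unadjusted p under 0.05, against 16.5% of all tested genes. DESeq2 and limma-voom each called 1, Jag1. Jag1, the ligand that vessel cells present to Notch3, was at 81.8, 117, 110 and 156 CPM in PBS 1 to PBS 4 and at 69.2, 62.0, 62.6 and 64.8 CPM in PDT 1 to PDT 4. No PDT library reached the lowest PBS library. It differed by −0.84 ± 0.17 on the log2 scale (SE, adjusted p = 0.0652 by edgeR, 0.000569 by DESeq2 and 0.0318 by limma-voom). Which cells of the tumour held these Jag1 reads was not tested, so the difference cannot be assigned to vessel cells. Dll4, a Notch ligand of endothelial tip cells, differed by −0.29 ± 0.42 (adjusted p = 0.797 by edgeR). Without PBS 1, its highest library at 7.29 CPM, the log2 difference was 0.06.

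Heyl, a transcription factor that Notch signalling switches on in mural cells, split the treated libraries. It was at 19.6, 20.8, 19.7 and 26.3 CPM in PBS 1 to PBS 4 and at 6.43, 25.9, 8.79 and 8.07 CPM in PDT 1 to PDT 4. In 3 PDT libraries it lay below all PBS libraries, and in PDT 2 it was near the highest of them. With all 8 libraries the log2 difference was −0.82 ± 0.38 (SE, adjusted p = 0.312 by edgeR). Without PDT 2 it passed, at −1.47 ± 0.20 (adjusted p = 0.0322 by edgeR). PDT 2 also held the most skeletal muscle transcripts, with 7 markers summing to 3232 CPM where the remaining treated libraries had 140 to 689. Whether the muscle content of PDT 2 bears on Heyl was not tested. Notch3 itself was at 5.30 CPM in PDT 2, beside 5.23 to 6.04 CPM in the other treated libraries.

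Kcnj8 and Abcc9 encode the 2 parts of the ATP-sensitive potassium channel of pericytes, which ties membrane voltage to the energy state of the cell. Both genes lie on chromosome 6. Kcnj8 (ENSMUSG00000030247), the pore subunit, was at 3.43, 4.77, 6.91 and 8.20 CPM in PBS 1 to PBS 4 and at 10.8, 5.96, 7.18 and 9.12 CPM in PDT 1 to PDT 4. PDT 1 and PDT 4 lay above all PBS libraries and the other PDT libraries within their range. Fitted over all libraries, the log2 difference was 0.51 ± 0.31 (SE, 95% interval −0.18 to 1.19, adjusted p = 0.467 by edgeR), and 0.32 without PBS 1, the library with the lowest value.

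Abcc9 (ENSMUSG00000030249), the sulfonylurea receptor subunit that senses nucleotides, was at 5.44, 5.96, 4.52 and 5.23 CPM in PBS 1 to PBS 4. In PDT 1 to PDT 4 it was at 3.50, 7.54, 6.36 and 5.87 CPM. PDT 1, the library with the most Kcnj8, held the least Abcc9. PDT minus PBS came to 0.14 ± 0.29 on the log2 scale (SE, 95% interval −0.49 to 0.76, adjusted p = 0.872 by edgeR). Abcc9 is also expressed in skeletal muscle, and within each group it was highest in the library with the most muscle transcripts, PBS 2 and PDT 2. Without PDT 2 the log2 difference was −0.0020, and the part of muscle in it was not tested.

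The 2 subunits did not keep step. On the log2 scale, Kcnj8 minus Abcc9 was −0.66, −0.32, 0.61 and 0.64 over PBS 1 to PBS 4. Over PDT 1 to PDT 4 it was 1.61, −0.34, 0.17 and 0.63. PDT 1 lay above all other libraries and PDT 2 close to PBS 2, so the groups overlapped. The paralogues Kcnj11 and Abcc8, which form the channel of insulin-secreting cells, were uneven across libraries. Kcnj11 was at 0.349 to 3.05 CPM in PBS and 0.931 to 5.40 CPM in PDT, and differed by 0.89 ± 0.65 on the log2 scale (SE, adjusted p = 0.553 by edgeR). Abcc8 was at 1.03 to 6.10 CPM in PBS and 0.177 to 4.57 CPM in PDT, and differed by −0.62 ± 0.78 (adjusted p = 0.76). Of this pair 0 passed in edgeR, DESeq2 or limma-voom.

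DNA before the RefSeq start sites of the members differed in its letters. RefSeq windows of build GRCm38.p6 were matched for 6 of the 7 genes, all but Higd1b, and the 250 bases before the start were searched. These coordinates are of that build, while the counts are named for GRCm39. Bases are printed for the 2 channel subunits, whose levels did not keep step, and for Rgs5, the most abundant member. For Kcnj8 and Rgs5 these are the last 150 before the start. For Abcc9 they are 109, leaving out the 41 nearest the start, which lie in an exon of an annotated GENCODE transcript. They read 5′ to 3′ toward the start, and capitals mark the SP1 box.
Kcnj8, chr6:142571615-142571764, minus strand: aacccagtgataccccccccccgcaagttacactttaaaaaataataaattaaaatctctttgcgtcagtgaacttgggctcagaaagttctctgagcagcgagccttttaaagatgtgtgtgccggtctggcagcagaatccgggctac
Abcc9, chr6:142702316-142702424, minus strand: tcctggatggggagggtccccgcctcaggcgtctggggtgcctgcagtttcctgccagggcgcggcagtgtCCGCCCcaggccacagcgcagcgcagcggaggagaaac
Rgs5, chr1:169655351-169655500, plus strand: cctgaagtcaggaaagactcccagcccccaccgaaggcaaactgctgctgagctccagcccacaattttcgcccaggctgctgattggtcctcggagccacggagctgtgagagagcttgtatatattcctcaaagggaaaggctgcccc

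The SP1 box, GGGCGG on either strand, was present in 4 of the 6 windows of 250 bases, in Mcam with 5 copies, Notch3 with 4, Cspg4 with 2 and Abcc9 with 1. It was present in 32.7% of all 32851 RefSeq promoter windows of that length. Kcnj8 and Rgs5 held none, and they were also the windows with the least G and C, 49.2% and 53.6% against 60.4% to 73.6% in the other windows. The RBPJ core GTGGGAA, bound by the partner of Notch, the TATA box TATAAA and the CArG box of serum response factor, a motif of smooth muscle genes, were in 0 of the 6. Over all windows their shares were 5.42%, 12.4% and 1.47%. The TATA box was searched as TATAAA only, so the tatatat in the Rgs5 bases printed above was not counted. Of the 250 bases, 189 for Mcam, 71 for Cspg4 and 41 for Abcc9 lie in exons of GENCODE transcripts that start farther upstream. For Notch3 the bases just after the RefSeq start were not found in a GENCODE transcript, so its window may not lie at the GENCODE start. Motifs of different names were allowed to overlap. These matches describe letters in a window and say nothing of binding.

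Higd1b (ENSMUSG00000020928, chromosome 11) encodes a small mitochondrial membrane protein of the HIG1 domain family and is used as a marker of pericytes. It was at 0.327, 2.05, 1.89 and 2.56 CPM in PBS 1 to PBS 4 and at 3.15, 1.78, 1.96 and 3.71 CPM in PDT 1 to PDT 4. PBS 1 held 12 reads, with an exact Poisson interval of 6.20 to 20.96, and the other PBS libraries 72 to 88. As for Cspg4, the interval is too narrow if both reads of a pair were counted. PDT 1 and PDT 4 lay above all PBS libraries, and the other PDT libraries within their range. The log2 difference was 0.63 ± 0.58 (SE, 95% interval −0.63 to 1.90, adjusted p = 0.646 by edgeR). Without PBS 1 it was 0.29. In RefSeq's gene ranges Higd1b overlaps Eftud2, a splicing factor gene with 4098 to 6076 reads per library, 4098 of them in PBS 1. In GENCODE's gene ranges Higd1b overlaps no other gene. No source used here gives the annotation behind the counts or says whether they separate the pair by strand.

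Its relatives Higd1a and Higd2a, which act at the respiratory chain in many cell types, were also highest in PDT 1 and PDT 4. Higd1a was at 38.4 to 51.0 CPM in PBS and at 92.7, 45.7, 43.3 and 87.0 CPM in PDT 1 to PDT 4, and differed by 0.58 ± 0.25 on the log2 scale (SE, adjusted p = 0.268 by edgeR). Higd2a was at 34.1 to 70.7 CPM in PBS and at 74.1, 60.3, 61.9 and 94.6 CPM in PDT 1 to PDT 4, and differed by 0.60 ± 0.23 (adjusted p = 0.216). Of these 2 tested relatives 0 passed in edgeR, DESeq2 or limma-voom. In edgeR both had an unadjusted p under 0.05. Higd1c had 0 reads in all 8 libraries.

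**Figure D2:**
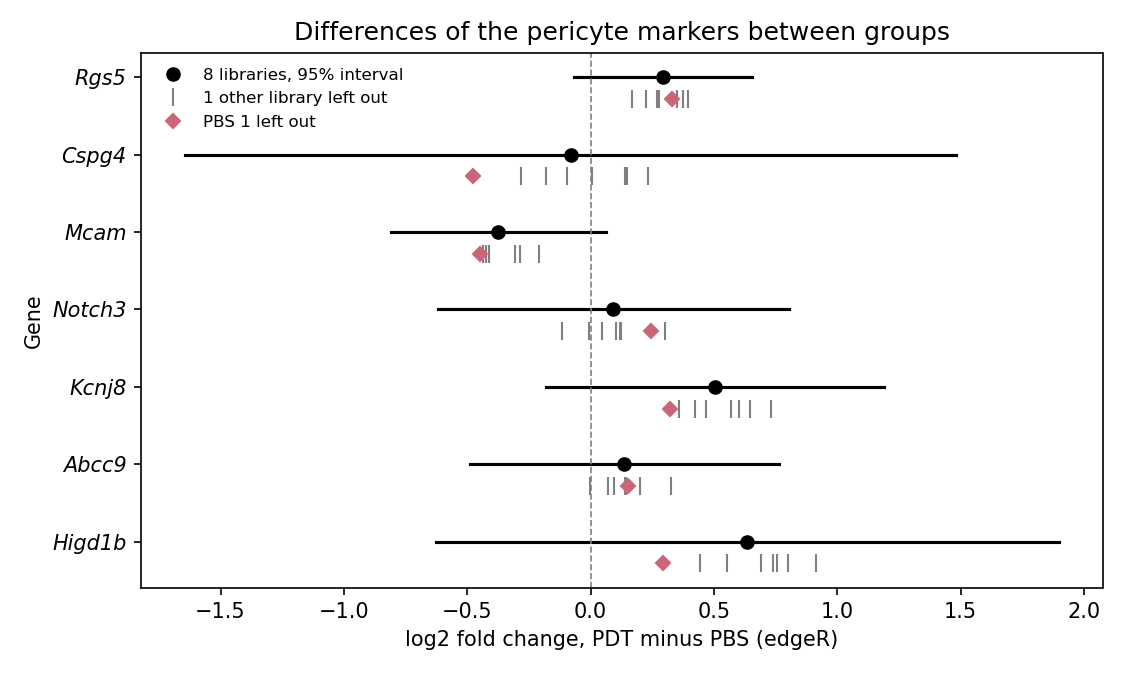
Log2 fold change of PDT minus PBS for the 7 pericyte markers, with the 95% interval from all 8 libraries (black) and, under it, the values with 1 library left out (grey ticks, red diamond for PBS 1). All 7 intervals include 0, and Cspg4 moves from −0.08 to −0.48 without PBS 1.

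The precision of these comparisons differed between markers. Standard errors ran from 0.16 for Rgs5 to 0.71 for Cspg4 on the log2 scale. In simulated counts with the means and spread of these libraries, the share of truly changed genes that this test found was 4.48% at 1.5-fold, 38.8% at 2-fold and 75.8% at 4-fold. Over all libraries the largest fitted difference among the 7, that of Higd1b, was 1.55-fold, and without PBS 1 it was −0.48 on the log2 scale, that of Cspg4. Differences near 1.5-fold were rarely detectable with 4 libraries a group.

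Levels can be compared between genes only per length of transcript. Per kilobase of exon, Rgs5 had 7.99 ± 1.12 CPM in PBS and Mcam 7.46 ± 1.24 (SD, n = 4), with overlapping libraries. In PDT, Rgs5 had 9.79 ± 1.94 CPM per kilobase and Mcam 5.76 ± 1.29, and the lowest Rgs5 value, 7.81, lay above the highest Mcam value, 6.52. Kcnj8 and Higd1b followed, at 2.29 ± 0.84 and 2.02 ± 1.14 in PBS and at 3.25 ± 0.84 and 3.13 ± 1.10 in PDT, within each other's spread. Notch3 and Abcc9 were at 0.639 ± 0.261 and 0.632 ± 0.0712 in PBS and 0.681 ± 0.0457 and 0.695 ± 0.203 in PDT, also within each other's spread. Cspg4 was lowest, at 0.318 ± 0.219 and 0.301 ± 0.115. Rgs5 and Mcam made up 36.9% to 54.8% and 15.0% to 35.1% of the summed CPM of the 7 markers. That sum was 75.6 to 89.7 CPM in PBS and 83.8 to 104 CPM in PDT, and the groups overlapped.

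**Figure D3:**
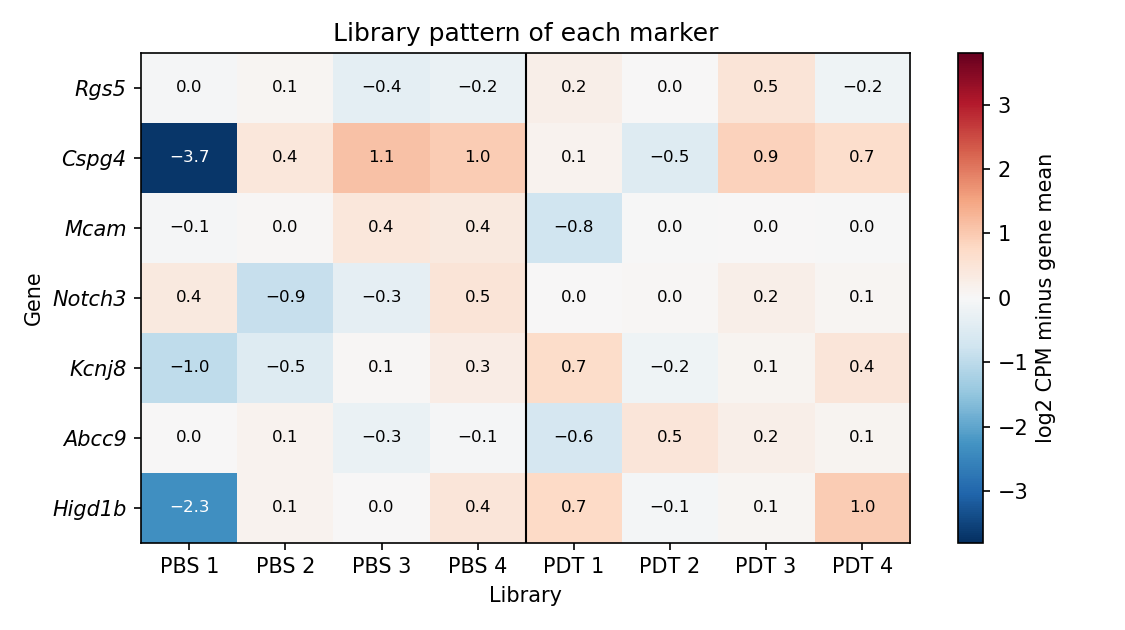
Log2 CPM of each pericyte marker minus its mean over the 8 libraries, one row per gene and one column per library, with the PBS libraries left of the line. PBS 1 is lowest for Cspg4 (−3.70), Higd1b (−2.34) and Kcnj8 (−0.95) and near the mean for Rgs5, Mcam and Abcc9.

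The 7 markers did not follow one pattern across libraries. In PBS 1, Cspg4, Higd1b and Kcnj8 were at their lowest of all 8 libraries, while Notch3 was near its highest and Rgs5, Mcam and Abcc9 were near their mean. Cspg4 was 11.9-fold and Higd1b 5.46-fold lower in PBS 1 than in the next lowest library. Of all tested genes 16.53% were lowest in PBS 1. At least 5-fold lower in PBS 1 than in every other library were 0.784% of all tested genes, a limit chosen after the values were seen. For the 7951 tested genes within the members' range of summed reads, 710 to 13150, the share was 0.365%. Cspg4 and Higd1b lie near the low end of that range. Cox4i2, another transcript of pericyte mitochondria singled out after its values were seen, had 0 reads in PBS 1 and 42 to 168 in the other PBS libraries. Set at 3 reads, the allowance made here for a count of 0, it was 15.0-fold lower in PBS 1 than in the next lowest library. That allowance covers counting error alone and is too small if both reads of a pair were counted, so 15.0 is not a lower bound.

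Likeness between genes was measured as the mean absolute difference of their centred log2 CPM over the 8 libraries. Seen from Higd1b, Kcnj8 was rank 34 of 16587 tested genes, at 0.36. Seen from Kcnj8, Higd1b was rank 2552 and its channel partner Abcc9 rank 10563, at 0.58. Seen from Cspg4, Higd1b was rank 217, at 0.67, and Kcnj8 rank 1397. The remaining pairs ranked between 2890 and 15306. PBS 1, PDT 1 and PDT 4 gave Kcnj8 and Higd1b their shared lows and highs. Cspg4, Higd1b and Kcnj8 are the 3 members that were lowest in PBS 1, and ranks without PBS 1 were not computed.

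The 2 tested genes closest to each marker were named by rule. Zfp523 and Dact1 were closest to Rgs5, at 0.077 and 0.087, and Tmem131l and Bcl2 to Mcam, at 0.085 and 0.092. Zswim1 and Ncapd3 were closest to Abcc9, both at 0.081, and Dact3 and Chn1 to Notch3, both at 0.11. Dexi and Nfkbia were closest to Kcnj8, at 0.12 and 0.13, Trp53rkb and Tmub1 to Higd1b, at 0.16 and 0.24, and Map3k9 and Hpdl to Cspg4, both at 0.28. A small distance is easier to reach for a gene that varies little.

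Relative to the endothelium, Mcam was lower in all 4 PDT libraries than in PBS 2, PBS 3 and PBS 4. For each library the mean log2 CPM of 17 endothelial markers was subtracted from the log2 CPM of each pericyte marker, as a description with no test. Mcam was at 0.89, 1.19, 1.63 and 1.32 in PBS 1 to PBS 4 and at 0.48, 0.95, 0.67 and 0.73 in PDT 1 to PDT 4. PBS 1 alone lay within the PDT range, and without it the groups did not overlap. How many of all genes separate on such a ratio without PBS 1 was not computed. The means were 1.26 ± 0.31 and 0.71 ± 0.20 (SD, n = 4). Mcam is itself expressed by endothelial cells, so this ratio is not one of pericytes to endothelium alone.

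The other ratios overlapped between groups as well. Rgs5 was at 1.80 ± 0.22 in PBS and 1.92 ± 0.36 in PDT, and Notch3 at −1.09 ± 0.54 and −1.06 ± 0.19. Abcc9 was at −0.96 ± 0.18 and −1.03 ± 0.36, and Kcnj8 at −0.89 ± 0.59 and −0.51 ± 0.53. Without PBS 1, Kcnj8 in PBS was at −0.63 ± 0.34 (SD, n = 3). For Cspg4 and Higd1b the PBS spread was set by PBS 1. Cspg4 was at −5.71 in PBS 1, at −1.39 to −0.65 in the other PBS libraries and at −2.47 to −1.44 in PDT. Once PBS 1 was left out it lay lower in PDT without overlap, by a narrow margin between PDT 3 and PBS 2. In CPM, Cspg4 overlapped between groups without PBS 1 as well, at 3.67 to 5.99 in PBS and 1.94 to 4.995 in PDT. Higd1b was at −4.89 in PBS 1, at −2.29 to −2.09 in the other PBS libraries and at −2.77 to −1.53 in PDT.

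**Figure D4:**
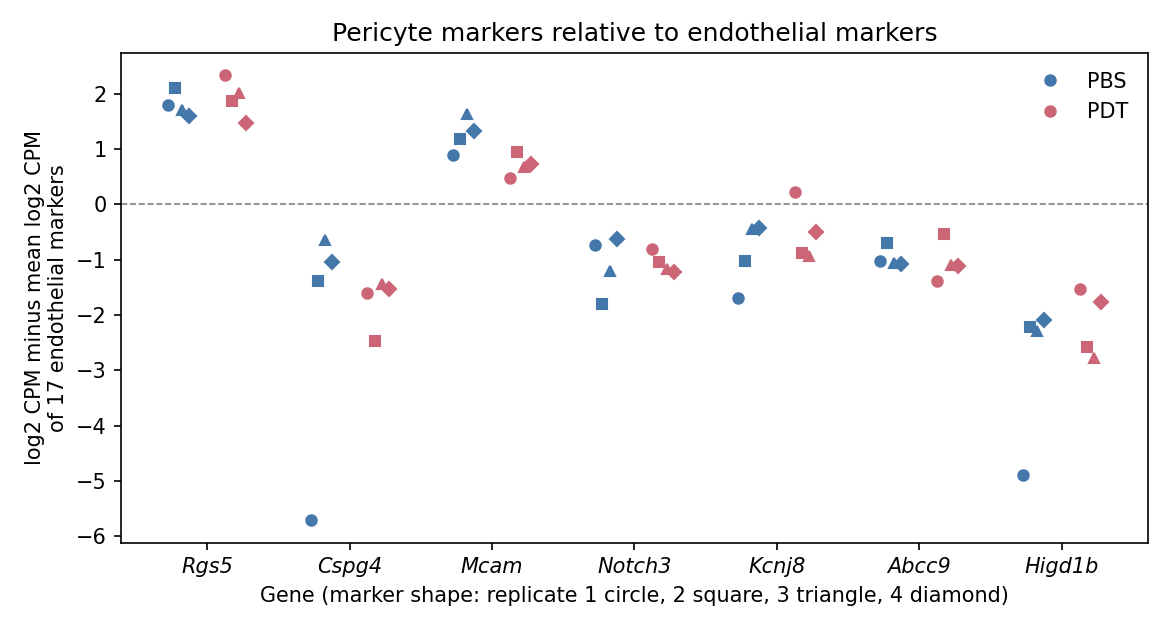
Log2 CPM of each pericyte marker minus the mean log2 CPM of 17 endothelial markers in the same library, for PBS (blue) and PDT (red), with symbols for the replicate. The groups overlap for all 7 genes, and PBS 1 lies far below the rest for Cspg4 (−5.71) and Higd1b (−4.89).

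The endothelial markers themselves were mixed. Of 17 tested, 10 were higher in PDT, with a median log2 difference of 0.27, or 0.16 without PBS 3. Over all tested genes 49.8% were higher. In edgeR, DESeq2 and limma-voom 0 passed, and 5 had an unadjusted p under 0.05 in edgeR, against 16.5% of all tested genes. Pecam1, an adhesion molecule at endothelial junctions, differed by 0.24 ± 0.19 (SE, adjusted p = 0.59 by edgeR), and Cdh5, the junctional cadherin, by 0.40 ± 0.20 (adjusted p = 0.355). The smallest p-values were those of Erg, a transcription factor of endothelial identity, at 0.83 ± 0.28 (adjusted p = 0.167), and Eng, a coreceptor of the TGF-beta family, at 0.40 ± 0.16 (adjusted p = 0.252). Among the markers that were lower in PDT, Flt1 had the smallest p, at −0.47 ± 0.20 (adjusted p = 0.262 by edgeR).

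The ligands and receptors that tie pericytes to endothelium did not change past the threshold in edgeR. Pdgfb, the endothelial ligand, was at 26.6 to 35.4 CPM in PBS and 24.3 to 28.8 CPM in PDT, and differed by −0.10 ± 0.14 on the log2 scale (SE, adjusted p = 0.806 by edgeR). Its receptor Pdgfrb, on pericytes and fibroblasts, was at 35.9 to 43.1 CPM in PBS and 29.0 to 43.4 CPM in PDT, and differed by −0.05 ± 0.14 (adjusted p = 0.911). Angpt1 differed by −0.09 ± 0.21 and Angpt2, its antagonist, by 0.01 ± 0.25 (adjusted p = 0.892 and 0.993). All 4 of these changed sign when some single library was left out.

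The groups did separate for Pdgfd, a ligand that also acts through Pdgfrb. It was at 26.7, 35.7, 34.1 and 24.0 CPM in PBS 1 to PBS 4 and at 19.6, 19.2, 21.9 and 16.3 CPM in PDT 1 to PDT 4. No PDT library reached the lowest PBS library. Its log2 difference was −0.65 ± 0.17 (SE, adjusted p = 0.102 by edgeR and 0.024 by DESeq2). Of the 6 PDGF ligands and receptors, 1 was higher in PDT, Pdgfra, at 0.36 ± 0.17 (adjusted p = 0.334 by edgeR), or 0.57 without PBS 1 (adjusted p = 0.0923), and 0 passed in edgeR or limma-voom. In that list 1 had an unadjusted p under 0.05, and DESeq2 called 1, against 16.5% and 6.36% of all tested genes. The endothelial receptors Tek and Tie1 differed by 0.57 ± 0.45 and 0.50 ± 0.22 (adjusted p = 0.584 and 0.287 by edgeR). Of the 4 angiopoietin and Tie genes 0 passed with any of the 3 tools, and 1 had an unadjusted p under 0.05 in edgeR.

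In a second set of 18 genes used for mural cells, differences ran in both directions. Of the 16 tested, 11 were higher in PDT (median log2 difference 0.16). In edgeR 0 passed, and 3 had an unadjusted p under 0.05, against 16.5% of all tested genes. The median was 0.079 without PBS 1, 0.46 without PBS 2, 0.030 without PBS 3 and 0.075 without PDT 1. DESeq2 called 2, Ndufa4l2 and Anpep, and limma-voom 1, against 6.36% and 1.01% of all tested genes. Ndufa4l2, a mitochondrial protein that hypoxia induces, was at 19.0, 19.9, 17.7 and 23.4 CPM in PBS 1 to PBS 4 and at 91.2, 33.0, 45.0 and 44.3 CPM in PDT 1 to PDT 4. No PBS library reached the lowest PDT library, and PDT 1 was highest. Ndufa4l2 differed by 1.42 ± 0.27 on the log2 scale (SE, adjusted p = 0.056 by edgeR, 5.32e-05 by DESeq2 and 0.0477 by limma-voom), and it passed in edgeR without PDT 2, with no count filter, with a filter at 1 CPM and with the replicate block. Anpep, an aminopeptidase of pericytes and also of myeloid cells, was at 15.5 to 27.4 CPM in PBS and 34.6 to 42.0 CPM in PDT. Its log2 difference was 0.75 ± 0.18 (adjusted p = 0.0906 by edgeR and 0.00922 by DESeq2). Ednra, also with an unadjusted p under 0.05 in edgeR, went the other way, at −0.71 ± 0.24 (adjusted p = 0.173 by edgeR). Atp13a5 had 0 reads in all libraries, and Lamc3 was too low to test.

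Markers of other cells were measured beside these. The 8 macrophage markers were all higher in PDT (median log2 difference 0.66), and Cd68, a lysosomal protein, was the 1 that passed in edgeR, where 6 had an unadjusted p under 0.05. DESeq2 called 4 and limma-voom 2. Over all tested genes the shares were 16.5% for the unadjusted p in edgeR, 6.36% called in DESeq2 and 1.01% in limma-voom. Their summed CPM was 584 to 1026 in PBS and 1161 to 1388 in PDT. Cd68 rose by 0.85 ± 0.15 (SE, adjusted p = 0.0497 by edgeR) and lost its call when any 1 library was left out. Anpep was higher in the same libraries, and the part of myeloid cells in its difference was not tested.

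Smooth muscle contractile genes, shared in part with pericytes, had a median of 0.38 over 10 tested members, of which 6 were higher. That median was 0.22 without PBS 1, 0.067 without PBS 3, 0.12 without PDT 2 and 0.24 without PDT 3. In edgeR 0 passed and 3 had an unadjusted p under 0.05, against 16.5% of all tested genes. Myl9, a regulatory myosin light chain, was called by DESeq2 and limma-voom. It was at 95.3, 37.9, 41.2 and 77.5 CPM in PBS 1 to PBS 4 and at 112, 124, 124 and 153 CPM in PDT 1 to PDT 4, and differed by 1.03 ± 0.27 on the log2 scale (SE, adjusted p = 0.101 by edgeR, 0.0041 by DESeq2 and 0.0403 by limma-voom). Smtn, a cytoskeletal protein of smooth muscle, lay the other way at −0.41 ± 0.16 (adjusted p = 0.218 by edgeR). Acta2, the smooth muscle actin also made by fibroblasts, differed by 0.53 ± 0.23 (adjusted p = 0.27). Myh11, the myosin that defines mature smooth muscle, was low, at 0.315 to 3.004 CPM in PBS and 1.53 to 4.42 CPM in PDT, and differed by 0.54 ± 0.63 (adjusted p = 0.744).

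Fibroblast transcripts were abundant, with 11 markers summing to 7245 to 14896 CPM in PBS and 11899 to 13534 CPM in PDT. Their median log2 difference was 0.34, with 0 of 11 past the threshold in edgeR or limma-voom and 2 in DESeq2. In edgeR 4 had an unadjusted p under 0.05, against 16.5% of all tested genes. Without PBS 3 the median was 0.20, and without PBS 1 it was 0.57. In the fit without PBS 1, 9 of 11 had an unadjusted p under 0.05, beside 2664 of all 17175 tested genes. Pdpn, a mucin-like surface protein of fibroblasts, differed by 0.70 ± 0.18 (SE, adjusted p = 0.0978 by edgeR), and Col1a1, a chain of collagen I, by 0.54 ± 0.18 (adjusted p = 0.165). Of the 11, 7 were higher in PDT and the others lower. Among the lower was Pi16, also with an unadjusted p under 0.05, at −0.83 ± 0.37 (adjusted p = 0.288 by edgeR). Skeletal muscle, adipocyte, epithelial and glial lists had 0 members past the threshold in edgeR, DESeq2 or limma-voom. In edgeR their unadjusted p was under 0.05 for 2, 0, 1 and 0 members. The 6 tested skeletal muscle markers were all higher in PDT, with a median of 1.49 that was −0.44 without PDT 2 and 4.06 without PBS 2.

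**Figure D5:**
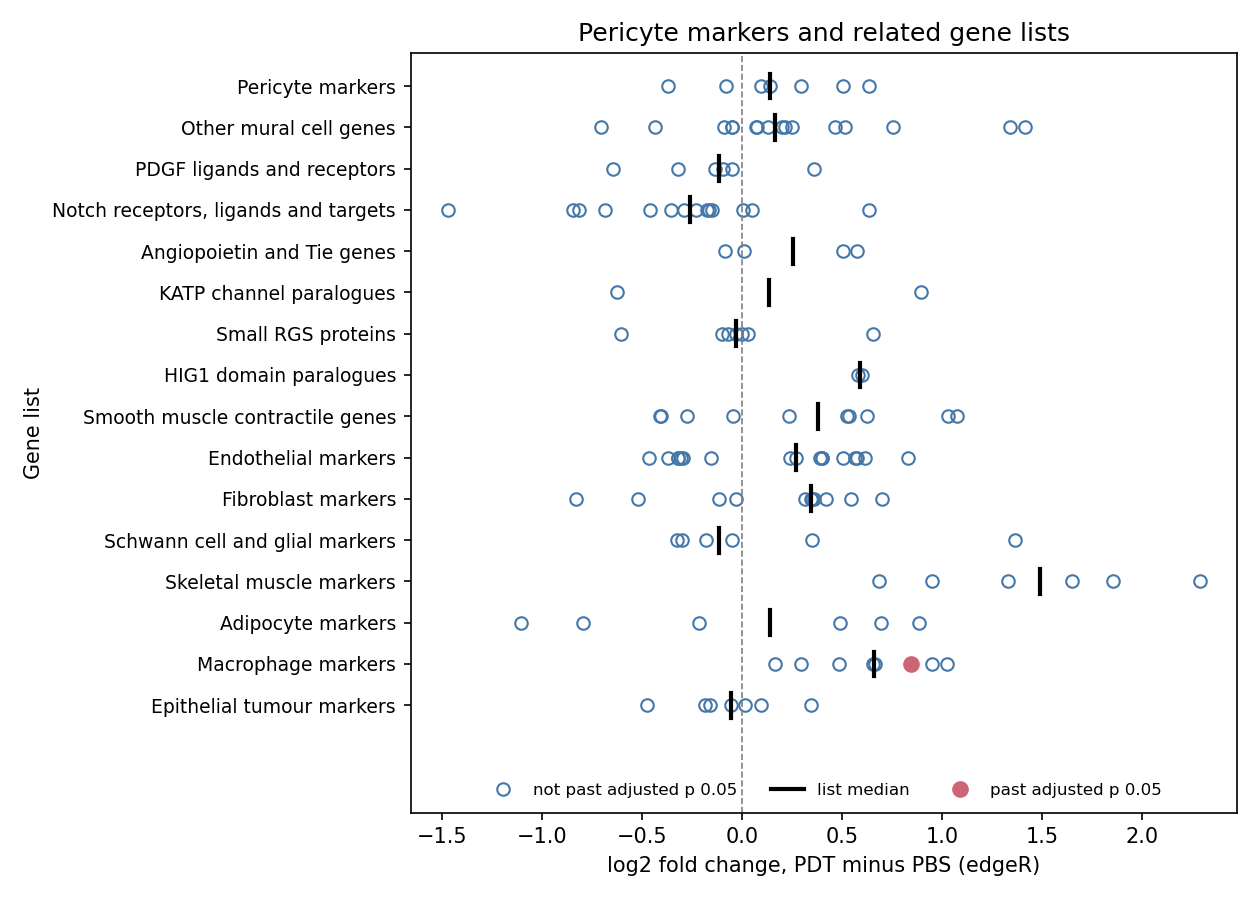
Log2 fold change of PDT minus PBS for each tested gene of the pericyte marker list and of 15 related lists, with open circles for genes not past an adjusted p of 0.05, a filled red circle for the 1 past it (Cd68) and a black bar for the list median. The pericyte markers spread around their median of 0.14 between −0.37 and 0.63.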

How the data were processed

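Total RNA of 8 tumour samples was freed of rRNA, and the library kit kept strand, per the labels' protocols. The authors deposited raw read counts per gene, per the file headers. The submitters' processing notes name cutadapt 4.6, STAR 2.7.11b and build GRCm39, with no order. No source used here gives the counting tool, its strand setting or the annotation. In each library 77.9% to 83.8% of counts from 1 to 20 were even, as when both reads of a pair are counted, which makes counting intervals too narrow. The labels give no batch, date or lane, and no library pair was a copy (chi-square per degree of freedom 62.1 or more).

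Counts were tested with R 4.3.3, edgeR 4.0.16 (filterByExpr, TMM scaling, quasi-likelihood test, no covariate), limma 3.58.1 and DESeq2 1.42.0, with Benjamini-Hochberg adjustment over all 16588 tested genes (13671 in DESeq2, after its own filter) and a threshold of 0.05. Standard errors were computed from the log2 difference and the F statistic. Log2 CPM used a prior count of 2. Counts, means and medians stand in for tests of lists. Simulated data, with 200 of 15952 genes changed, were used to check the edgeR fit. Exon lengths came from GENCODE vM21 by identifier.

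The members and all 16 lists were chosen with earlier results of these data known. Named genes were the members, those always named (Pdgfb, Pdgfrb, Angpt1, Angpt2, Jag1, Dll4, Pecam1, Cdh5, Acta2, Myh11, Kcnj11, Abcc8), each list's called genes or else its 2 smallest p-values, and the 2 tested genes of at least 1 CPM most like each member. Ednra, Flt1 and Pi16 were added because they went the other way from the genes named in their lists. Alternatives were other scalings, filters and tools, a replicate block, halved counts and each library left out.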

Additional observations from a re-analysis of the deposited data

Results flagged for a closer look

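Within a group of 4 libraries, 1 value stood far from the other 3 in 10 of 90 groups checked, where chance gives about 1 in 20. Among the pericyte markers this was Mcam in PDT 1, the lowest treated library at 12.8 CPM. Among the Notch and PDGF genes it was Heyl in PDT 2, the highest treated library at 25.9 CPM, Pdgfb in PBS 2, the highest control at 35.4 CPM, and Pdgfra in PBS 1, the highest control at 48.0 CPM. Among markers of other cells, Col1a1 was lowest of the treated libraries in PDT 1, at 2597 CPM, and Krt19 highest of the controls in PBS 3, at 948 CPM. Transcripts of muscle and fat were uneven in both groups. Tnnt3 was highest of the controls in PBS 2 at 79.7 CPM, and Fabp4 in PBS 2 at 151 CPM. Of the treated libraries PDT 3 was highest for Fabp4, at 203 CPM, and for Lep, at 3.66 CPM.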

How the results depend on the processing

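In all 16 alternatives edgeR, DESeq2 and limma-voom called 0 of the 7 pericyte markers. Among their 112 values, 103 kept the direction and 9 reversed, of Cspg4 (6), Notch3 (2) and Abcc9 (1). With single libraries left out, the log2 difference ran from 0.17 to 0.40 for Rgs5, −0.48 to 0.23 for Cspg4, −0.45 to −0.21 for Mcam, −0.12 to 0.30 for Notch3, 0.32 to 0.73 for Kcnj8, −0.0020 to 0.33 for Abcc9 and 0.29 to 0.91 for Higd1b. Cspg4 also reversed to 0.33 with the replicate block and to 0.51 in limma-voom with quality weights, and Lep to 0.82 in the latter.

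The number of called genes, 39 of all tested, was 69 with upper-quartile scaling, 534 with no count filter, 88 with 1 CPM in 4 libraries, 182 with the replicate block, 67 with halved counts, 869 in DESeq2, 167 in limma-voom and 0 to 122 with single libraries left out. Of the related genes, 1 was called, and 10, 2, 5, 12 and 5 with no count filter, 1 CPM, the replicate block, DESeq2 and limma-voom, and 0 to 2 with single libraries left out. The cause was not tested. Same-numbered libraries correlated at 0.038 to 0.069 in their deviations, and 0 of 4 best with its own number. This gave no sign that the number pairs them, but it cannot exclude pairing. Reversals with single libraries left out ran from −0.15 to 2.02 for Fabp4, −3.16 to 0.94 for Lep, −0.14 to 0.014 for Pdgfb, −0.11 to 0.067 for Pdgfrb, −0.20 to 0.080 for Angpt1, −0.14 to 0.14 for Angpt2 and −0.53 to 0.058 for Dll4.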
